A study of Mus musculus with 12 samples.

Results

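The cyclin-dependent kinase inhibitors are 7 genes, Cdkn1a, Cdkn1b, Cdkn1c, Cdkn2a, Cdkn2b, Cdkn2c and Cdkn2d, and their levels were followed in gonads of Cbx2 knockout and wild-type mouse embryos. The members are the probe sets that the array annotation gives to 1 of these genes and to no other, which were 9 of 45037 probe sets and 7 of 18193 genes. Cdkn1a and Cdkn1b were read by 2 probe sets each and the other genes by 1, and no probe set shared between several genes held a member.

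The inhibitors bind complexes of a cyclin and its kinase, or the kinase alone, and slow the step from G1 into S phase. The Cip/Kip proteins (Cdkn1a or p21, Cdkn1b or p27, Cdkn1c or p57) act on several cyclin and kinase pairs. The INK4 proteins (Cdkn2a or p16, Cdkn2b or p15, Cdkn2c or p18, Cdkn2d or p19) bind Cdk4 and Cdk6 and so keep the retinoblastoma protein active. Cbx2 is a chromobox subunit of Polycomb repressive complex 1, which silences genes on marked chromatin, and Cdkn2a and Cdkn2b are among its textbook targets.

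Affymetrix arrays measured RNA of gonads at E11.5, taken from 30 µm frozen sections by laser capture, with GATA4 staining and tissue shape as the guide. The 12 arrays formed 4 groups of 3, namely XX and XY gonads labelled Cbx2 knockout (KO) and XX and XY gonads labelled wild type (WT), with embryos obtained by crossing mice heterozygous for the knockout. Each array held a pool of 2 or 3 individuals, and 15 ng of RNA was amplified in 2 rounds, so p-values here measure the spread between pools. The nature of the knockout allele, the strain and the sex chromosome typing method were stated in none of the labels used, and the source description of the WT arrays names KO XX gonads, against their titles and genotype labels.

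Some facts of the arrays touch every result. Cbx2 itself read 9.27 to 9.58 on the log2 scale in the 6 KO arrays and 8.46 to 9.04 in the 6 WT arrays, so its probe set was higher in the libraries labelled KO; where that probe set lies relative to the deleted part is not known, and KO and WT below mean the arrays so labelled. Of the gonadal ridge markers, Wt1 read 10.83 to 11.10 in KO and 11.02 to 11.24 in WT. Lhx9 read 11.14 to 11.87 in KO and 12.41 to 12.84 in WT. Gata4, whose protein guided the capture, read 7.34 to 7.72 in KO and 8.61 to 9.29 in WT. Whether the captured tissue matched between genotypes was not tested. Xist read 12.55 to 12.88 in XX and 5.81 to 6.09 in XY. WT XX replicate 1 correlated less with its own group (mean r 0.988) than with WT XY (0.994). The difference between the 3′ and 5′ Gapdh control probe sets, a measure of RNA length, was 4.91 ± 0.12 in KO XY against 4.13 ± 0.38 in WT XY (SD, n = 3; exact two-sided permutation p = 0.1, the smallest that 3 against 3 allows). In bulk RNA, fewer cells of a type and less RNA per cell cannot be told apart.

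The 7 genes did not move together. In KO gonads Cdkn1a was lower and Cdkn2c was higher in both sexes, Cdkn1c was lower over both sexes together, and neither Cdkn2a, Cdkn2b, Cdkn2d nor Cdkn1b passed the test against WT. With limma and a Benjamini-Hochberg adjusted p under 0.05 over all 45037 probe sets, 1 of 9 inhibitor probe sets rose and 1 fell in XY, and 1 rose and 2 fell in XX. Over both sexes 1 rose (Cdkn2c) and 3 fell (both of Cdkn1a and that of Cdkn1c). Among all probe sets, 8.89% were called in XY (4.24% upward, 4.65% downward), 9.35% in XX (5.77% upward, 3.58% downward) and 17.6% over both sexes (9.84% upward, 7.73% downward). The median log2 difference of the 9 probe sets over both sexes was -0.17, against -0.01 over all probe sets. In 3 of 9 probe sets (Cdkn1a 1424638_at, Cdkn1c and Cdkn2c) all 6 KO arrays lay beyond all 6 WT arrays, which 8.17% of all probe sets did. For 3 arrays against 3 that share was not counted, and such separations below describe the values only.

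**Figure D1:**
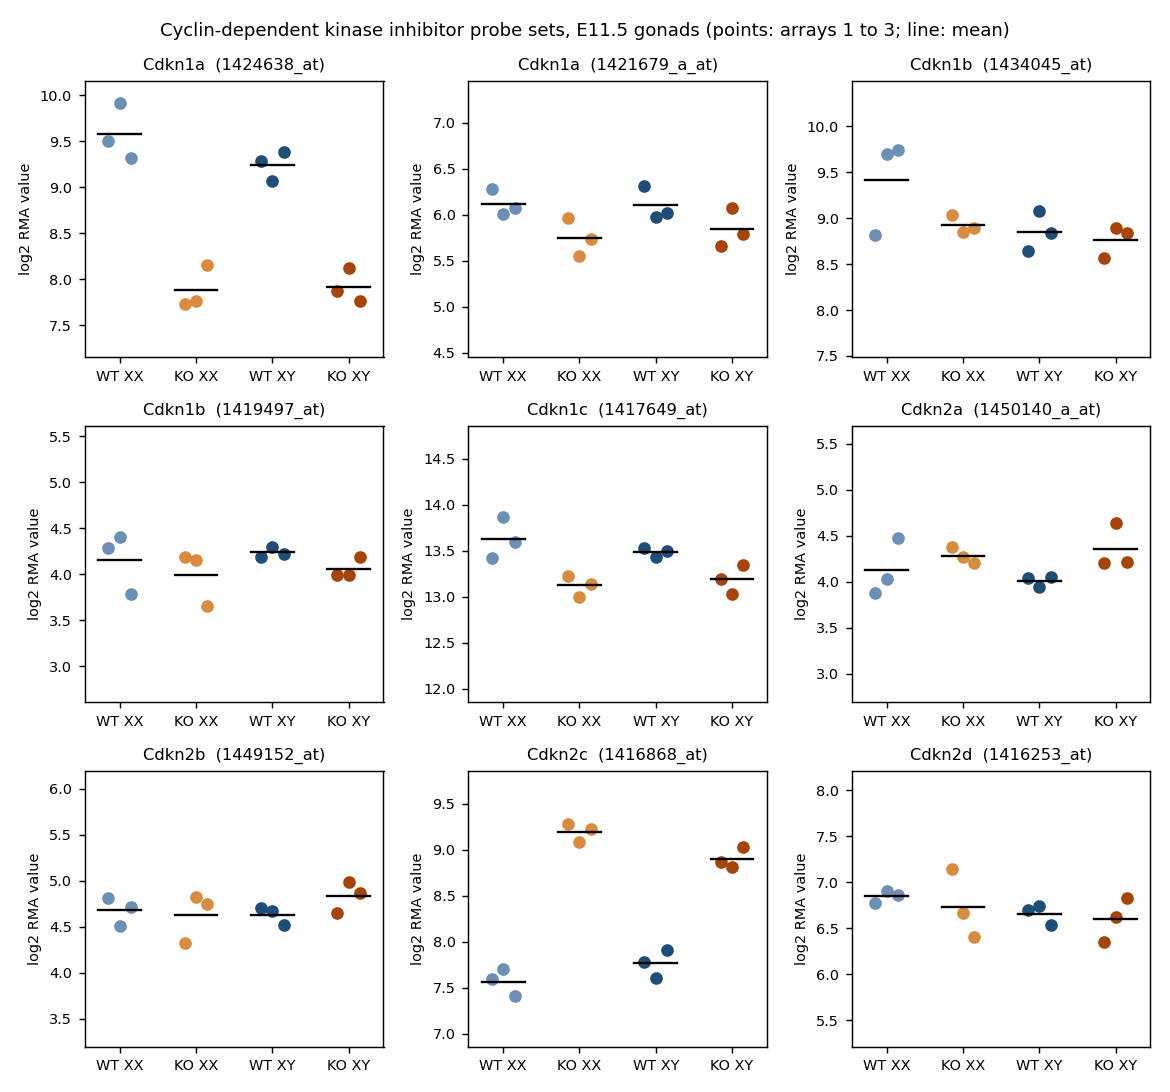
Log2 RMA value (vertical axis, all panels spanning the same height in log2 units) of each of the 9 inhibitor probe sets in WT XX, KO XX, WT XY and KO XY gonads; points are single arrays and lines are group means of 3. Cdkn1a (1424638_at) lies at 7.73 to 8.15 in KO and 9.07 to 9.91 in WT, Cdkn2c at 8.81 to 9.28 in KO and 7.41 to 7.91 in WT, and the points of Cdkn2a, Cdkn2b and Cdkn2d overlap between the 6 KO and the 6 WT arrays.

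The start regions of 4 members are shown because these genes either passed the test in both sexes or are the textbook Polycomb targets, and unmethylated CpG-rich starts are where Polycomb complexes are known to gather in mammals. Each run is the 250 bases before a RefSeq start in GRCm38.p6, read 5′ to 3′ on the gene's strand, with every CpG in capitals. They are Cdkn1a at its downstream start (chr17:29093519-29093768, plus strand), Cdkn2c at its upstream start (chr4:109666757-109667006, minus strand), Cdkn2a before the upstream first exon that gives Arf (chr4:89294620-89294869, minus strand), Cdkn2a before the first exon that gives p16 (chr4:89282193-89282442, minus strand) and Cdkn2b (chr4:89311033-89311282, minus strand).
Cdkn1a: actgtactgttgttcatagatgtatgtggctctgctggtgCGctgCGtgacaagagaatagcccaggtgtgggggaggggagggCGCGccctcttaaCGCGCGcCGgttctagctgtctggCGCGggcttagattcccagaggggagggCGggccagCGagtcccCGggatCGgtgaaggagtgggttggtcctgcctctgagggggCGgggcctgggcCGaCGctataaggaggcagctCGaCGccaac
Cdkn2c: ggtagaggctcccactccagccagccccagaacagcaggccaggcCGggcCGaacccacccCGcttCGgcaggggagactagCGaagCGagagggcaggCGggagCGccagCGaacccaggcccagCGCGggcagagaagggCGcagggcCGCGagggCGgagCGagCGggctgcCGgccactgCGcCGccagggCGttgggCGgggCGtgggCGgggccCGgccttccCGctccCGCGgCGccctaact
Cdkn2a upstream: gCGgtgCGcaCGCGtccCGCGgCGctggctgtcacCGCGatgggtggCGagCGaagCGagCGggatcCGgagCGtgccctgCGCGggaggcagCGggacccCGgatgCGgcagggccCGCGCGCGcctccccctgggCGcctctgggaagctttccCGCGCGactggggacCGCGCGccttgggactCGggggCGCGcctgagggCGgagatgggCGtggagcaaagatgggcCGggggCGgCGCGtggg
Cdkn2a downstream: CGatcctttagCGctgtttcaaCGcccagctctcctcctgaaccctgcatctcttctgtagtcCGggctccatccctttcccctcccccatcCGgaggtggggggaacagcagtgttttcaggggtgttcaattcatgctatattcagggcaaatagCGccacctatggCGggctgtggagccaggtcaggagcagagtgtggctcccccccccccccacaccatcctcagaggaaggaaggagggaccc
Cdkn2b: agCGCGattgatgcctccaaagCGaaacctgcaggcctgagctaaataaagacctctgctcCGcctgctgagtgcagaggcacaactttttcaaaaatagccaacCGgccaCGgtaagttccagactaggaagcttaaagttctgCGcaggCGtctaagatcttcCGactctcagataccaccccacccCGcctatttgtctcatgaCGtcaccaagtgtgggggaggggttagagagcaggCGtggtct
The Cdkn1a window holds 19 CpG and the Cdkn2c window 29, while 19.7% and 6.78% of the 32851 mouse start windows of that length hold at least as many. The upstream Cdkn2a window holds 40 CpG, a number that 1.31% of windows reach, whereas the downstream one holds 7 (46.3% of windows reach it) and Cdkn2b holds 12 (33.5%). The median window holds 6. The other RefSeq starts of Cdkn1a and Cdkn2c hold fewer CpG. The upstream Cdkn1a window holds 2 (81.2% of windows hold at least as many), and the downstream Cdkn2c window holds 6 (50.4%), the same as the median. No window of Cdkn1c was given. Each of the 6 members with a window thus had a start with more CpG than the median. Among them were Cdkn1a, which fell, and Cdkn2c, which rose. Cdkn2a, Cdkn2b, Cdkn1b (28 CpG, 7.61% of windows) and Cdkn2d (16 CpG, 25.4%) were the others and did not pass the test.

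All 9 windows, from every member except Cdkn1c, were searched on both strands for short motifs. The GC box (GGGCGG), bound by Sp factors, was found 2 times in the downstream Cdkn1a window, 3 times in the upstream Cdkn2c window, 3 times in Cdkn2d, 2 times in the upstream Cdkn2a window and 1 time in Cdkn1b, and 32.7% of all windows hold it. An E2F motif (TTTCCCGC, TTTGGCGC, TTTCGCGC or TTTGCCGC) was found 1 time, in the upstream Cdkn2a window, and 1.86% of all windows hold one. The CCAAT box (CCAAT) was found 2 times in Cdkn1b and 1 time in Cdkn2d, and 33.8% of all windows hold it. The letters of a TATA box (TATAAA, in 12.4% of all windows) and of a GATA core (AGATAA or TGATAA, in 16.6%) were in none of the 9 windows. The GC box and these E2F motifs are different letters but may overlap in a sequence, and a match describes letters only.

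Cdkn1a encodes p21, a Cip/Kip inhibitor best known as a p53 target. Its brighter probe set (1424638_at) read 7.73, 7.76 and 8.15 in KO XX gonads and 7.87, 8.12 and 7.76 in KO XY gonads (replicates 1, 2 and 3). In WT it read 9.50, 9.91 and 9.32 in XX and 9.28, 9.07 and 9.38 in XY. Every KO array lay below every WT array in each sex. Group means were 7.88 ± 0.23 in KO XX, 7.92 ± 0.18 in KO XY, 9.24 ± 0.16 in WT XY and 9.58 ± 0.30 in WT XX (SD, n = 3), and neighbours in that order within a genotype overlapped. The log2 difference between KO and WT was -1.33 ± 0.17 (SE) in XY (2.51-fold lower, adjusted p = 0.000142) and -1.70 ± 0.17 in XX (3.24-fold lower, adjusted p = 2.02e-05). Without WT XX replicate 1 the XX difference was -1.74 ± 0.19 (adjusted p = 6.84e-05).

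The second Cdkn1a probe set (1421679_a_at) was also lower in KO, and passed the test only over both sexes. It read 5.96, 5.55 and 5.73 in KO XX, 5.66, 6.07 and 5.79 in KO XY, 6.28, 6.01 and 6.07 in WT XX and 6.31, 5.97 and 6.02 in WT XY. In XX the KO arrays lay below the WT arrays with a gap of 0.05 or less, and in XY they overlapped. The difference over both sexes was -0.32 ± 0.10 (adjusted p = 0.0488), and in single sexes it did not pass (adjusted p = 0.354 in XY and 0.134 in XX). Leaving out any 1 array other than KO XX replicate 1, KO XY replicate 2 and WT XX replicate 2 ended this call, with adjusted p from 0.0259 to 0.129 over the 12 omissions, and it passed in 5 of 19 alternatives in all. Where on the transcript each probe set lies was not given in the annotation used.

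Cdkn1b encodes p27, the inhibitor whose loss enlarges mice and their organs, gonads included. Its brighter probe set (1434045_at) read 9.03, 8.85 and 8.89 in KO XX and 8.56, 8.89 and 8.84 in KO XY. In WT it read 8.81, 9.70 and 9.74 in XX and 8.64, 9.08 and 8.84 in XY. WT XX replicates 2 and 3 were the 2 highest of all 12 arrays, and WT XX replicate 1 lay among the WT XY arrays. KO differed from WT by -0.49 ± 0.21 in XX (adjusted p = 0.172) and by -0.09 ± 0.21 in XY (adjusted p = 0.882), so neither passed. Leaving out WT XX replicate 1 changed this call: the XX difference became -0.79 ± 0.14 (adjusted p = 0.00392) and that over both sexes -0.44 (adjusted p = 0.00627). The dimmer probe set (1419497_at) read 3.65 to 4.41 over all arrays and overlapped in every comparison, with adjusted p = 0.405 over both sexes.

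Cdkn1c encodes p57, the Cip/Kip member that is imprinted, expressed from the maternal copy and needed for cells to leave the cycle in many embryonic tissues. Its probe set gave a signal above 99.1% to 99.7% of probe sets, depending on the array; this ranks signal and not RNA amount, since probes differ in brightness. It read 13.23, 13.00 and 13.14 in KO XX and 13.19, 13.03 and 13.35 in KO XY. In WT it read 13.42, 13.87 and 13.60 in XX and 13.53, 13.43 and 13.50 in XY. The highest KO array stood just below the lowest WT array. The difference was -0.51 ± 0.13 in XX (1.42-fold lower, adjusted p = 0.0256), -0.30 ± 0.13 in XY (adjusted p = 0.191) and -0.40 ± 0.09 over both sexes (1.32-fold lower, adjusted p = 0.00706). The XX call was lost without KO XX replicate 2 (adjusted p = 0.0861), KO XX replicate 3 (0.064), WT XX replicate 2 (0.098) or WT XX replicate 3 (0.0508), while the call over both sexes passed in all 21 alternatives.

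Cdkn2a and Cdkn2b lie side by side on chromosome 4 and are the classic loci released when Polycomb repression is lost in cultured fibroblasts. Cdkn2a read 4.38, 4.27 and 4.21 in KO XX and 4.20, 4.64 and 4.22 in KO XY, against 3.88, 4.03 and 4.48 in WT XX and 4.04, 3.94 and 4.05 in WT XY. Whether this probe set reads the transcript of p16, that of Arf or both was not given in the annotation used. These Cdkn2a values stood above 15.8% to 27.7% of probe sets, the low end of the arrays. In XY every KO array lay above every WT array, by 0.15 at the nearest, and in XX they overlapped. The share of all probe sets that separate so with 3 arrays against 3 was not counted. The difference was 0.34 ± 0.16 in XY (95% interval 0.01 to 0.68, adjusted p = 0.221) and 0.16 ± 0.16 in XX (-0.17 to 0.49, adjusted p = 0.589). Over both sexes it was 0.25 ± 0.11 (adjusted p = 0.145), which passed only without WT XX replicate 3 (adjusted p = 0.0271) among 20 alternatives.

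Cdkn2b showed no call in either sex. It read 4.32, 4.82 and 4.75 in KO XX, 4.65, 4.98 and 4.87 in KO XY, 4.81, 4.51 and 4.71 in WT XX and 4.70, 4.67 and 4.52 in WT XY. The groups overlapped, and the probe set stood above 24.7% to 33.7% of probe sets. The difference was 0.20 ± 0.14 in XY (95% interval -0.11 to 0.51, adjusted p = 0.488) and -0.05 ± 0.14 in XX (-0.36 to 0.26, adjusted p = 0.883). The intervals of both genes leave out a rise of 1 on the log2 scale as these probe sets report it, but a probe set this dim can understate a change.

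Cdkn2c encodes p18, an INK4 inhibitor that is present in many embryonic tissues and is known for limiting organ and pituitary growth in mice. It read 9.28, 9.08 and 9.22 in KO XX and 8.87, 8.81 and 9.03 in KO XY. In WT it read 7.59, 7.70 and 7.41 in XX and 7.78, 7.60 and 7.91 in XY. The lowest KO array was 0.89 above the highest WT array, and the order of group means was KO XX (9.19 ± 0.11), KO XY (8.90 ± 0.12), WT XY (7.76 ± 0.16) and WT XX (7.56 ± 0.14, SD, n = 3), with overlap between the WT groups and none between the KO groups. The difference was 1.14 ± 0.12 in XY (2.20-fold higher, adjusted p = 3.57e-05), 1.63 ± 0.12 in XX (3.09-fold higher, adjusted p = 2.13e-06) and 1.38 ± 0.09 over both sexes (2.61-fold higher, adjusted p = 9.18e-08). These 3 calls passed in every alternative run. Cdkn2d, which encodes the INK4 protein p19, read 6.35 to 7.14 in KO and 6.54 to 6.90 in WT and differed by -0.08 ± 0.12 over both sexes (adjusted p = 0.709).

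**Figure D2:**
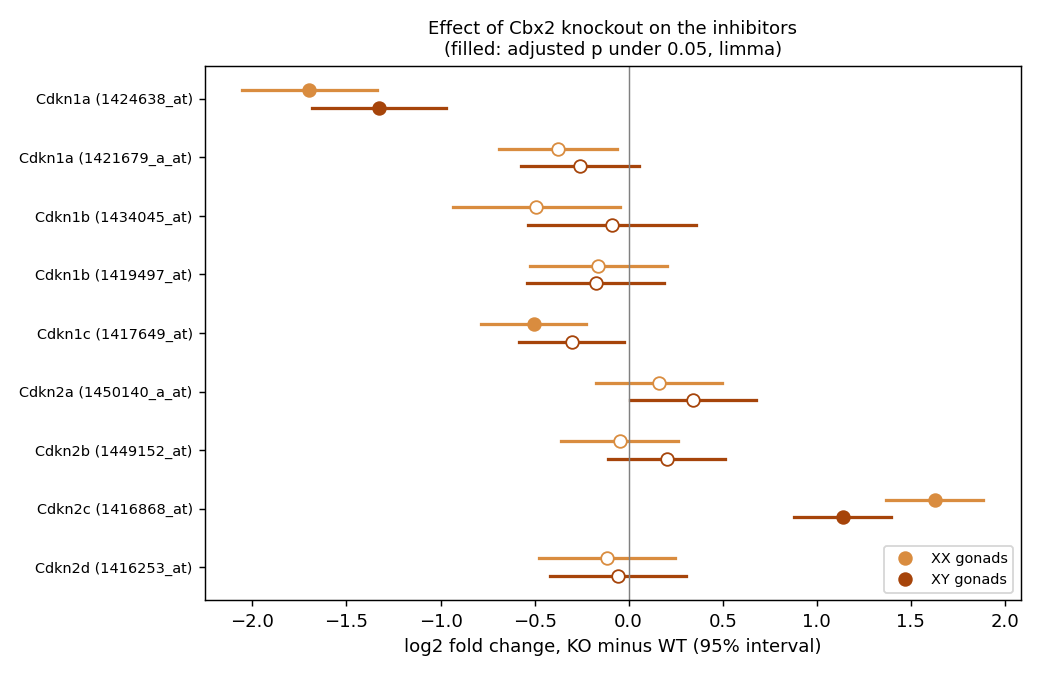
Log2 fold change of KO against WT (horizontal axis) for the 9 inhibitor probe sets, in XX (light) and XY (dark) gonads; bars are 95% intervals from limma and filled points passed an adjusted p under 0.05. Cdkn1a (1424638_at) stands at -1.70 and -1.33 and Cdkn2c at 1.63 and 1.14, while the other probe sets lie between -0.51 and 0.34.

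No inhibitor passed between XX and XY gonads of 1 genotype. In WT, 0 of 9 probe sets passed the limma test of XY against XX (1 at an unadjusted p under 0.05), where 0.0555% of all probe sets did. That one was Cdkn1b (1434045_at), at -0.56 ± 0.21 (adjusted p = 0.543). Without WT XX replicate 1 it was -0.87 ± 0.14 (adjusted p = 0.00526), and 5.44% of all probe sets were then called, so the WT sex comparison rests on that array. Cdkn2d read 6.54 to 6.74 in WT XY and 6.78 to 6.90 in WT XX, without overlap, and did not pass by limma (-0.19 ± 0.17, adjusted p = 0.776). In KO, 0 of 9 passed (1 at an unadjusted p under 0.05) beside 0.0377% of all probe sets. The one was Cdkn2c, whose 3 XY arrays lay below its 3 XX arrays (-0.29 ± 0.12, adjusted p = 0.432). The Gapdh difference also set these KO groups apart (4.91 in XY, 4.05 in XX), so sex and RNA length cannot be told apart there.

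The effect of the knockout was tested for a difference between the sexes. By limma 0 of 9 probe sets passed (1 at an unadjusted p under 0.05), and 0.00666% of all probe sets did. Cdkn2c had the smallest p, with an effect lower by 0.49 ± 0.17 in XY (interaction -0.49, adjusted p = 0.771). For Cdkn1a (1424638_at) it was 0.37 ± 0.23 (adjusted p = 0.785) and for Cdkn1b (1434045_at) 0.40 ± 0.29 (adjusted p = 0.799). No difference between the sexes was detectable at this precision, and the test does not show that the sexes respond alike.

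The partners and targets of the inhibitors were described through lists of genes, each gene by its brightest probe set, with KO compared with WT over both sexes. Among all 18193 genes, 12.5% were called upward and 9.44% downward, with a median log2 difference of -0.01. Of 9 G1 cyclins and kinases, 2 rose and 1 fell (median -0.00). Cdk6, a kinase that INK4 proteins bind, rose by 0.57 ± 0.09 (adjusted p = 4e-04), Ccnd2 (cyclin D2) rose by 0.25 (adjusted p = 0.0333) and Ccnd1 (cyclin D1) fell by 0.37 (adjusted p = 0.0467). The other kinase that INK4 proteins bind, Cdk4, was at -0.05 (adjusted p = 0.792), and Cdk2, the partner of cyclin E, at 0.23 (adjusted p = 0.206). No single omission of an array kept all 3 calls: the count was 1 without KO XX replicate 3, KO XY replicate 1, WT XY replicate 2 or WT XY replicate 3 and 2 without any other array, and it was 1 with the mean of a gene's probe sets.

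Genes further down the pathway are given beside the share of all genes, 12.5% called upward and 9.44% downward. The calls of the retinoblastoma and E2F list were near that share. Of 13 retinoblastoma and E2F genes, 2 rose and 0 fell (median 0.03): Tfdp2, a partner of E2F proteins, at 0.41 (adjusted p = 0.0372) and Rbl1 (p107) at 0.32 (adjusted p = 0.0395). This count was 0 without KO XX replicate 3, KO XY replicate 1, KO XY replicate 3 or WT XY replicate 1, 1 without KO XX replicate 1, KO XX replicate 2 or WT XY replicate 3, and 4 without WT XX replicate 1. It was also 0 after a further quantile normalization, with the mean of a gene's probe sets and with the Gapdh difference as a covariate. Of 19 measured genes of S phase and mitosis, such as the replication helicase and mitotic kinase genes, 0 passed the limma test in either direction, with a median of 0.02 and a range from -0.26 to 0.14; 1 at an unadjusted p under 0.05, and without WT XX replicate 2 the count passing was 1.

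Genes of the p53 pathway, which acts on Cdkn1a, moved both ways. Of 17 measured genes of p53 and its targets, 4 rose and 3 fell (median 0.17), while Cdkn1a, also a target, fell. Those with the largest rise were Eda2r (0.53, adjusted p = 0.00705), Trp53inp1 (0.51, adjusted p = 0.00204) and Mdm4 (0.40, adjusted p = 0.014), and those that fell were Sesn2 (-0.62, adjusted p = 0.000825), Tigar (-0.53, adjusted p = 0.00152) and Btg2 (-0.43, adjusted p = 0.000795). Mdm2, the ubiquitin ligase for p53, was at 0.17 (adjusted p = 0.173), and Trp53 had no probe set of its own. Of 10 genes of ubiquitin ligases that act on Cip/Kip proteins, 1 rose and 0 fell (median 0.09): Dtl, a substrate receptor for p21, at 0.68 ± 0.17 (adjusted p = 0.0132). Skp2, the receptor for p27, was at 0.16 (adjusted p = 0.515), and the list had 2 calls (1 of them downward) without WT XX replicate 1, after a further quantile normalization or with the mean of a gene's probe sets. With the Gapdh difference as a covariate it had 0, so the Dtl call was lost.

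Some regulators of the Cdkn2a and Cdkn2b locus passed the test while the locus itself did not. Of 19 measured, 5 rose, 1 fell and 13 did not pass (median 0.19). Tbx3, a T-box repressor of Arf, rose by 1.22 ± 0.12 (adjusted p = 6.71e-06), Twist1 by 1.12 ± 0.10 (adjusted p = 3.02e-06) and Bmi1, the Polycomb subunit known for silencing this locus, by 1.09 ± 0.10 (adjusted p = 2.44e-06). Bmi1 averaged 11.53 ± 0.09 in KO XX and 11.52 ± 0.11 in KO XY against 10.20 ± 0.30 in WT XX and 10.67 ± 0.06 in WT XY (SD, n = 3). Tbx2, another T-box repressor of the locus, fell by 0.65 ± 0.20 (adjusted p = 0.0374), but in 9 of the 12 single omissions the list had 0 genes called downward. Ezh2, the Polycomb methyltransferase, was at 0.33 ± 0.11 (adjusted p = 0.0648).

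Of 15 genes of TGF-beta and FOXO signalling, which act on Cdkn1a, Cdkn1b, Cdkn1c and Cdkn2b, 7 rose and 1 fell (median 0.24). The ligand gene Tgfb3 rose by 1.54 ± 0.11 (adjusted p = 3.34e-07), Klf6 by 0.80 ± 0.19 (adjusted p = 0.00952) and Smad4, the shared mediator of the pathway, by 0.60 ± 0.11 (adjusted p = 0.00109), while Klf4, an activator of Cdkn1a, fell by 0.79 ± 0.21 (adjusted p = 0.016). Tgfb3 averaged 8.62 ± 0.25 in KO XX and 8.39 ± 0.12 in KO XY against 6.96 ± 0.25 in WT XX and 6.97 ± 0.17 in WT XY. Without KO XY replicate 1, WT XY replicate 2 or WT XY replicate 3 this list had 5 calls, as it had with the mean of a gene's probe sets and with the Gapdh difference as a covariate.

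Cdkn1c sits in an imprinted domain controlled by the noncoding RNA Kcnq1ot1. Of 11 genes of that domain other than Cdkn1c, 1 rose and 1 fell (median 0.03): Osbpl5 at 0.39 (adjusted p = 0.0393) and Kcnq1, the gene next to Cdkn1c, at -0.42 ± 0.10 (adjusted p = 0.0114). Kcnq1ot1 was at -0.05 (adjusted p = 0.837). This count was 1 when any array other than KO XX replicate 1, KO XX replicate 2 or WT XX replicate 3 was left out, with a further quantile normalization or with the replicate block, and it was 0 with the Gapdh difference as a covariate, so the Kcnq1 call was lost there. Of 10 other imprinted growth genes, 5 rose and 1 fell (median 0.26), with Dlk1 at 0.75 ± 0.18 (adjusted p = 0.00859), Meg3 at 0.57 (adjusted p = 0.000367), Igf2r at 0.57 (adjusted p = 0.00982) and Mest at -0.28 (adjusted p = 0.0341); in 6 of the 12 single omissions this list had 0 genes called downward.

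**Figure D3:**
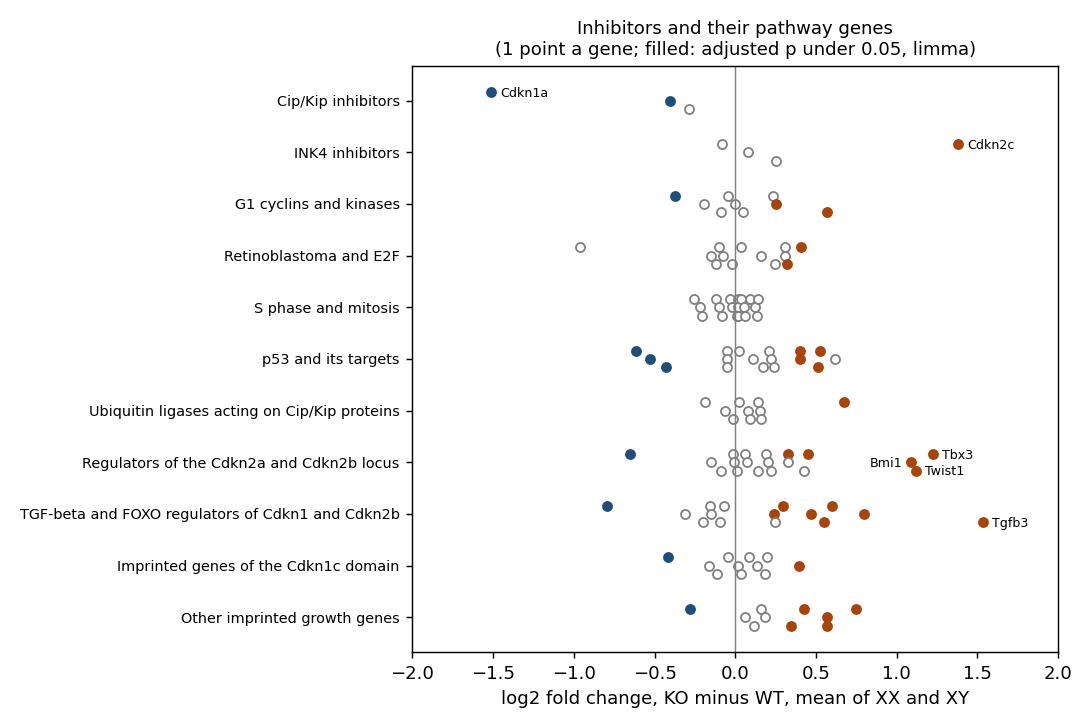
Log2 fold change of KO against WT over both sexes (horizontal axis), 1 point for each gene, for the inhibitors and 9 lists of partners, targets and regulators; filled points passed an adjusted p under 0.05 by limma and genes beyond 1 in either direction are named. Cdkn1a at -1.51 and Cdkn2c at 1.38 lie apart from most pathway genes, of which Tgfb3 (1.54), Tbx3 (1.22), Twist1 (1.12) and Bmi1 (1.09) also lie beyond 1, and the S phase and mitosis genes lie between -0.26 and 0.14.

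Markers of cell types were described over both sexes as well, beside the 12.5% of all genes called upward and 9.44% called downward. The signals of a list's markers were added on the linear scale for each array. The log2 of that sum is given, so the brightest markers weigh most. For 9 coelomic epithelium markers the sum was 13.18 to 13.52 in KO XX and 13.21 to 13.22 in KO XY, against 12.08 to 12.33 in WT XX and 12.23 to 12.47 in WT XY. Of these 9 markers, 5 rose and 1 fell. For 8 interstitial mesenchyme markers the sum was 14.58 to 14.75 in KO XX and 14.57 to 14.62 in KO XY, against 13.54 to 13.91 in WT XX and 13.70 to 13.87 in WT XY, and 6 of the 8 rose. Cdkn2c rose as well, and so did 5 of 10 macrophage markers and 4 of 9 germ cell markers, and no link between them was tested.

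Gonadal ridge and endothelial markers were mostly lower in KO, as Cdkn1a and Cdkn1c were, and no link between them was tested. For 7 gonadal ridge markers the sum was 12.74 to 13.23 in KO XX and 12.91 to 13.06 in KO XY, against 13.55 to 13.73 in WT XX and 13.69 to 13.82 in WT XY, and 4 of 7 fell while Cbx2 rose; Nr5a1 fell by 2.19 and Gata4 fell by 1.45. For 10 endothelial markers it was 11.06 to 11.69 in KO XX and 10.99 to 11.42 in KO XY, against 11.58 to 11.89 in WT XX and 11.80 to 11.94 in WT XY. These endothelial sums overlapped between genotypes in XX and not in XY, and 8 of 10 markers fell over both sexes. For 6 mesonephros markers the sum was 7.89 to 8.50 in KO XX and 7.89 to 8.06 in KO XY, against 8.85 to 9.81 in WT XX and 9.94 to 10.13 in WT XY. That list as a whole did not fall: its median difference was 0.04, with 1 gene that rose (Gata3), 1 that fell and 4 that did not pass, and Calb1 fell by 2.77.

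Of 10 macrophage markers 5 rose and 0 fell (median 0.55), with sums of 11.51 to 12.72 in KO XX, 11.92 to 12.11 in KO XY, 11.04 to 11.89 in WT XX and 11.09 to 11.37 in WT XY, which overlapped in XX and not in XY. Of 9 germ cell markers 4 rose (sums of 12.67 to 13.03 in KO and 12.37 to 12.88 in WT). Of 6 neural markers 1 rose (8.39 to 8.83 and 8.23 to 8.52), near the 12.5% of all genes called upward. Of 7 erythroid markers 0 passed by limma (2 at an unadjusted p under 0.05). The part of these cell types in the inhibitor results was not tested. With the Gapdh difference as a covariate, Cdkn1a (1424638_at) and Cdkn2c passed by limma in both sexes. Their adjusted p in XY was 0.0254 and 0.00123. In XY the Gapdh difference stood furthest apart between genotypes, without overlap. The lowest KO XY array was at 4.78 and the highest WT XY array at 4.57. Genotype and RNA length therefore cannot be told apart in XY, with or without the covariate.

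The genes most like each called member over the 12 arrays were ranked by Pearson r among 16328 named genes. The arrays share the genotype difference itself, so such values can describe it in large part. Most like Cdkn2c were Col4a6 (r = 0.987), which encodes a basement membrane collagen, Krt19 (0.982), the keratin on the coelomic epithelium list, and Ror1 (0.981), a Wnt5a receptor. Most like Cdkn1a (1424638_at) were Plxdc1 (0.977), Ttc38 (0.976) and Ak7 (0.975), and most like its second probe set were Pdgfa (0.966), Thegl (0.914) and Mrps27 (0.888). Of the genes most like the second probe set, Pdgfa fell by limma over both sexes (-0.54, adjusted p = 0.0031). Thegl (-0.11, adjusted p = 0.361) and Mrps27 (-0.17, adjusted p = 0.161) did not pass. How much of each likeness comes from genotype was not tested. Most like Cdkn1c were Vav2 (0.944), Prkar1a (0.941) and Dpf3 (0.94). Krt19 rose by 2.56 and Plxdc1 fell by 2.28 over both sexes.

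The nearest measured protein-coding gene on either side of each inhibitor was looked at to see how far a change extended along the chromosome; these genes were chosen after results were known. Beside Cdkn1a, Srsf3 was at 0.01 (adjusted p = 0.95) and Rab44 at 0.06 (adjusted p = 0.666), so neither passed where Cdkn1a fell. Beside Cdkn2c, Faf1 was at -0.18 (adjusted p = 0.378) and the predicted gene on the other side at -0.24 (adjusted p = 0.228), where Cdkn2c rose. Beside Cdkn2b, Dmrta1, a doublesex-related transcription factor gene, fell by 3.12 ± 0.18 over both sexes (adjusted p = 4.1e-08), with -3.73 in XY and -2.51 in XX, while Mtap on the far side of Cdkn2a was at 0.10 (adjusted p = 0.437). Beside Cdkn1b, Apold1 fell by 1.31 ± 0.10 (adjusted p = 5.55e-07), and Gpr19 was at 0.30 (adjusted p = 0.11). Beside Cdkn2d, Ap1m2 was at -0.24 (adjusted p = 0.0666) and Kri1 at 0.06 (adjusted p = 0.703), and beside Cdkn1c, on the side away from Kcnq1, Slc22a18 was at -0.16 (adjusted p = 0.411).

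**Figure D4:**
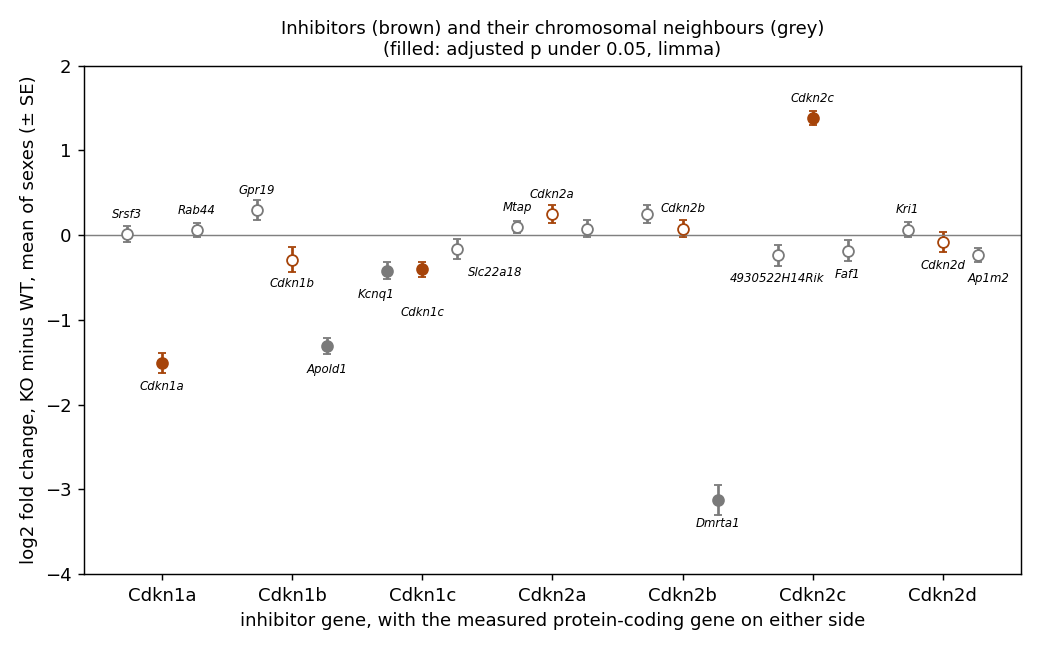
Log2 fold change of KO against WT over both sexes (vertical axis) for each inhibitor gene (brown) and the measured protein-coding gene on either side (grey); bars are ± SE and filled points passed an adjusted p under 0.05 by limma; the unnamed grey points beside Cdkn2a and Cdkn2b are Cdkn2b and Cdkn2a. Cdkn1a (-1.51) and Cdkn2c (1.38) stand apart from their neighbours, whereas Dmrta1 (-3.12) and Apold1 (-1.31) fell beside Cdkn2b and Cdkn1b, which did not pass.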

How the data were processed

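Affymetrix arrays of 12 gonad samples were used. Per the submitters' processing notes, the authors worked with Affymetrix Expression Console, RMA and affy, with no version stated. The deposited values are log2 RMA values (2.4 to 15), made by the authors with background correction, quantile normalization and summary of each probe set, which can compress low signals. They were used as deposited. For arrays, their number limits the precision.

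Of 45101 probe sets, 64 controls were left out. The other 45037 were fitted with limma 3.58.1 in R 4.3.3 (lmFit, eBayes, 4 group means, 8 residual degrees of freedom), two-sided, with Benjamini-Hochberg adjustment within each of 6 contrasts. Genes were named where the platform annotation gives 1 symbol (34945 probe sets, 932 with several, 9160 with none), and 34741 were matched to RefSeq with no symbol changed. List genes were read by their brightest probe set (highest mean over the 12 arrays). Named were all inhibitor probe sets, up to 3 called list genes each way, 8 preset regulators and the 3 most correlated genes. Promoter windows came from RefSeq. The procedure was tested on simulated data. Members and lists were chosen with earlier results of these data known. Alternatives covered normalization, filtering, probe set choice, variance prior, array weights, a replicate block, groups in the fit, the Gapdh difference and single arrays left out.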

Additional observations from a re-analysis of the deposited data

How the results depend on the processing

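Adjusted p-values are from limma throughout, and 3 arrays a group limit every comparison; the causes of the shifts below were not tested. Cdkn1a (1424638_at) and Cdkn2c kept their direction and passed against WT in each sex and over both in all alternatives run, and Cdkn1c did so over both sexes. The second Cdkn1a probe set, over both sexes, missed the threshold after a further quantile normalization (0.0644), with centring on array medians (0.0654), with a trended robust prior (0.0568) and with the Gapdh difference as a covariate (0.191). Cdkn1b (1434045_at) passed over both sexes with array weights (0.037) and with the Gapdh covariate (0.0175). Cdkn1c in XX did not pass when only its own groups were fitted (0.0935).

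Same-numbered replicates did not pair: of 18 correlations of their deviations, from -0.178 to 0.224, 4 were over 0.1. With the replicate number as a block, the second Cdkn1a probe set had an adjusted p of 0.0539 over both sexes, and no other inhibitor call changed.

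Counts over all probe sets moved more. One probe set a gene gave 2421, 2493 and 4326 genes called for genotype in XY gonads, XX gonads and both together, 11 and 6 called for sex within WT and within KO, and 1 for the interaction, and the mean of a gene's probe sets gave, in that order, 2257, 2340, 3985, 10, 5 and 1 (18193 genes tested, against 45037 probe sets with 4003, 4213, 7910, 25, 17 and 3 called). The WT sex contrast had 11 calls among probe sets above the median and 60 with array weights. KO against WT in XY had 6937 with array weights, 6139 with only its own groups and 1040 with the Gapdh covariate, which left 0 for the interaction. KO against WT in XX had 2514 with only its own groups. Leaving out single arrays gave 2541 to 5637 calls in XY, 18 to 2449 for sex in WT, 13 to 30 for sex in KO and 3 to 10 for the interaction, and 0 to 1 inhibitor calls for sex in WT.

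Over the 12 single omissions, adjusted p-values ran as follows for results that changed call or sign. For KO against WT in XX they were 0.00392 to 0.429 for Cdkn1b (1434045_at), 0.217 to 0.98 for its dimmer probe set, 0.0114 to 0.098 for Cdkn1c, 0.609 to 0.964 for Cdkn2b and 0.268 to 0.897 for Cdkn2d. In XY they were 0.77 to 0.989 for Cdkn1b (1434045_at) and 0.71 to 0.983 for Cdkn2d. Over both sexes they were 0.0259 to 0.129 for the second Cdkn1a probe set, 0.00627 to 0.401 for Cdkn1b (1434045_at), 0.0271 to 0.299 for Cdkn2a and 0.266 to 0.999 for Cdkn2d.

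Small differences that passed in no setting changed sign. For XY against XX in KO, the omissions gave 0.8 to 0.973 for Cdkn1a (1424638_at), 0.698 to 0.995 for its second probe set, 0.763 to 1 for Cdkn1b (1419497_at), 0.825 to 0.997 for Cdkn1c, 0.789 to 0.974 for Cdkn2a and 0.642 to 0.99 for Cdkn2d. In WT they gave 0.907 to 1 for Cdkn1a (1421679_a_at), 0.763 to 1 for Cdkn1b (1419497_at), 0.465 to 1 for Cdkn2a and 0.942 to 1 for Cdkn2b, and for the interaction 0.924 to 1 for Cdkn1b (1419497_at) and 0.832 to 1 for Cdkn2d. Cdkn2b in XX turned sign after quantile normalization (0.965) and with array weights (0.966). Cdkn2a between KO sexes did so after quantile normalization (0.999) and with the Gapdh covariate (0.863), as did Cdkn1c with the covariate (0.939) and Cdkn1a (1424638_at) with weights (0.934). For the interaction, Cdkn1b turned with weights (1419497_at, 0.969) and with the covariate (1434045_at, 0.896), and so did Cdkn2a (0.99) and Cdkn2d (0.94) with the covariate.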
